A study of Oryza sativa with 12 samples.

Results

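OsMFT1 and OsMFT2 are the rice genes named after MOTHER OF FT AND TFL1 (MFT), and their RNA levels were followed here in germinating seed of an osmft1 knockout and of wild type, in salt and in water. They were taken as the rows Os06g0498800 (OsMFT1) and Os01g0111600 (OsMFT2), 2 of the 35204 gene IDs listed in every library. The numbering of these IDs places OsMFT1 on chromosome 6 and OsMFT2 on chromosome 1, and a RefSeq gene table of the assembly ASM3414082v1 lists protein-coding genes on the same chromosomes, with MFT2 as the symbol of 1 and OsMFT1 as a synonym of the other. Neither the files nor that table pairs the names with the IDs, so the pairing rests on published locus names.

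Genes of the MFT type belong to the phosphatidylethanolamine-binding protein (PEBP) family, together with FLOWERING LOCUS T (FT), which promotes flowering, and TERMINAL FLOWER 1 (TFL1), which opposes it. PEBP proteins act largely by joining complexes with bZIP transcription factors. The MFT branch is known mainly from seeds: in Arabidopsis, MFT responds to abscisic acid and gibberellin, the hormones that hold back and promote germination, and in wheat an MFT gene has been tied to seed dormancy. In rice, OsMFT2 has been described as a seed gene that acts in germination with bZIP factors of the abscisic acid pathway, and OsMFT1 is also known for effects on heading date and panicle form.

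The 4 groups were osmft1 seed in 300 mM NaCl, osmft1 seed in water, seed of the variety Zhonghua 11 (wild type, WT) in 300 mM NaCl and Zhonghua 11 seed in water, with 3 libraries each. All seeds were surface-sterilised and kept on wet filter paper at 28 °C in a cycle of 15 h of light and 9 h of dark, with the solution renewed every 24 h. The labels call osmft1 a knockout but give neither the allele nor the number of lines, and the series text speaks of mutant lines. They give no sampling time, so a difference in germination stage between groups cannot be told apart from an effect of salt or genotype. Nothing in the labels tells whether a group's libraries stem from separate plates or seed lots, so p-values cover no more than the spread among these libraries, and that may be technical. The labelled tissue was not checked against seed marker genes, since no source used here pairs their names with the IDs.

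The deposited values were taken as FPKM, a level scaled to gene length and library size. Steps between low values gave 14379728 to 15688593 counted reads per library. Differences are in log2(FPKM + 1), tested with limma over the 22017 IDs that reached 1 FPKM in at least 3 libraries, and called at a Benjamini-Hochberg adjusted p under 0.05. Of the pair, OsMFT2 passed this filter and OsMFT1 did not.

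OsMFT2 RNA was abundant in every library, rose with salt in both genotypes, and was lower in osmft1 than in WT seed. In salt it stood at 4841, 4461 and 4271 FPKM in osmft1 seed and at 6263, 6684 and 6153 FPKM in WT seed. In water it stood at 1190, 1600 and 1618 FPKM in osmft1 seed and at 2529, 2217 and 2565 FPKM in WT seed. No group overlapped another: osmft1 in water was lowest, followed by WT in water, osmft1 in salt and WT in salt. How many other IDs had groups equally apart was not counted, so this does not set OsMFT2 apart. The widest relative spread was in osmft1 in water, where replicate 1 lay below the others.

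**Figure D1:**
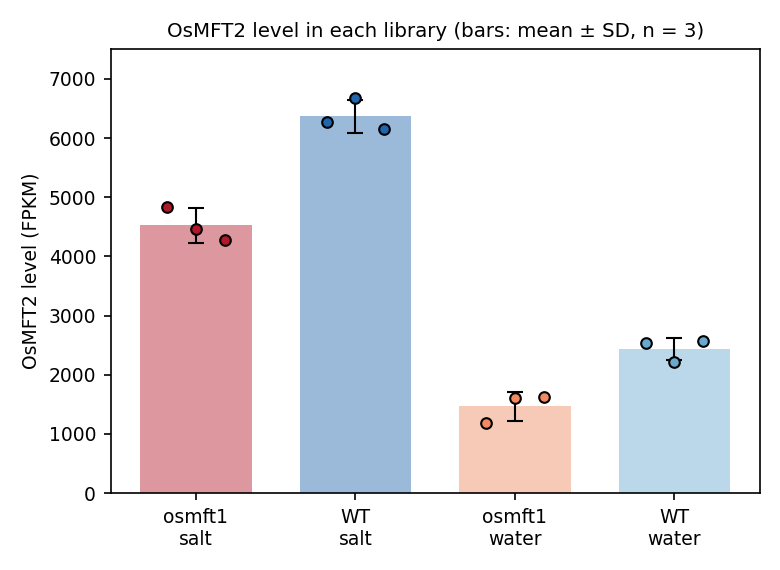
OsMFT2 level in FPKM on the vertical axis for osmft1 salt, WT salt, osmft1 water and WT water; points are libraries, bars are means and lines are SD (n = 3). The salt libraries sit between 4271 and 6684 FPKM, all above the water libraries, and within each treatment every osmft1 library lies below every WT library.

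The comparison of salt with water asked how OsMFT2 differed between stressed and unstressed seed of each genotype. In osmft1 it averaged 4525 ± 290 FPKM in salt and 1469 ± 242 FPKM in water (SD, n = 3 each). This is a rise of 1.63 ± 0.12 in log2 units (SE; adjusted p in limma = 3.26e-06), or 3.1-fold with a 95% interval of 2.57 to 3.74. In WT it averaged 6367 ± 280 FPKM in salt and 2437 ± 191 FPKM in water (SD, n = 3 each). The rise there was 1.39 ± 0.12 in log2 units (SE; adjusted p in limma = 3.97e-06), or 2.62-fold with a 95% interval of 2.17 to 3.16. Both differences were larger than the spread between libraries, and both kept their call under each alternative processing and without each library in turn. In RNA from whole seed, a change in the share of cells that hold OsMFT2 RNA and a change in its amount per cell cannot be told apart.

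Many IDs differed between salt and water, so a call by itself does not set OsMFT2 apart. Of the tested IDs, 46.0% were called in osmft1 (20.5% higher in salt, 25.5% lower) and 55.9% in WT (27.7% higher, 28.2% lower). The size of the rise was less common: 3.27% of tested IDs had a higher log2 difference than OsMFT2 in osmft1, and 6.26% did in WT. In absolute level the gain was 3055 FPKM in osmft1, the 6th highest of all 35204 IDs, and 3930 FPKM in WT, the 4th highest. A gain in FPKM scales with the level of an RNA, so these ranks partly restate how abundant OsMFT2 was.

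The comparison of osmft1 with WT asked whether loss of OsMFT1 came with another level of OsMFT2. In water, OsMFT2 was lower in osmft1, at -0.74 ± 0.12 in log2 units (SE; adjusted p in limma = 0.00258), which puts osmft1 at 0.598 of the WT level (95% interval 0.496 to 0.722). Without the low osmft1 water replicate 1 it was -0.60 ± 0.10 (SE; adjusted p in limma = 0.00662). Of all tested IDs, 30.4% were called between the genotypes in water, 20.0% higher in osmft1 and 10.4% lower, and 6.17% had a more negative difference than OsMFT2.

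Gene length moved with this comparison. The 2041 tested Os loci within 10% of the length implied for OsMFT2, 1036 bases, had a median log2 difference of -0.10, against 0.11 for all tested IDs. With each library's trend on length removed, the value for OsMFT2 was -0.51 ± 0.11 (SE; adjusted p in limma = 0.00804), smaller but still called. Scaling moved with it too. Median-ratio scaling put the median of all tested IDs at -0.06, against 0.11 as deposited, and turned the share of calls that were higher in osmft1 to 42.4%, against 65.8% as deposited. OsMFT2 stayed lower in osmft1 under that scaling, at -0.96 ± 0.17 (SE; adjusted p in limma = 0.00294).

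In salt, OsMFT2 was lower in osmft1, at -0.49 ± 0.12 in log2 units (SE; adjusted p in limma = 0.041), which puts osmft1 at 0.71 of the WT level (95% interval 0.589 to 0.857). Of all tested IDs, 5.45% were called between the genotypes in salt, 4.33% higher in osmft1 and 1.12% lower, and 5.24% had a more negative difference. Higher values made up 79.5% of these calls as deposited and 56.6% with median-ratio scaling. The call was close to its threshold. It was lost in 14 of 22 alternative settings, among them the replicate block (adjusted p = 0.0649), median-ratio scaling (adjusted p = 0.0826), a fit of the salt libraries alone (adjusted p = 0.114) and the removal of any 1 library (limma, adjusted p up to 0.122) other than osmft1 water replicate 1, osmft1 water replicate 3 or WT water replicate 2. The difference itself kept its sign and stayed between -0.59 and -0.45 in all of them.

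**Figure D2:**
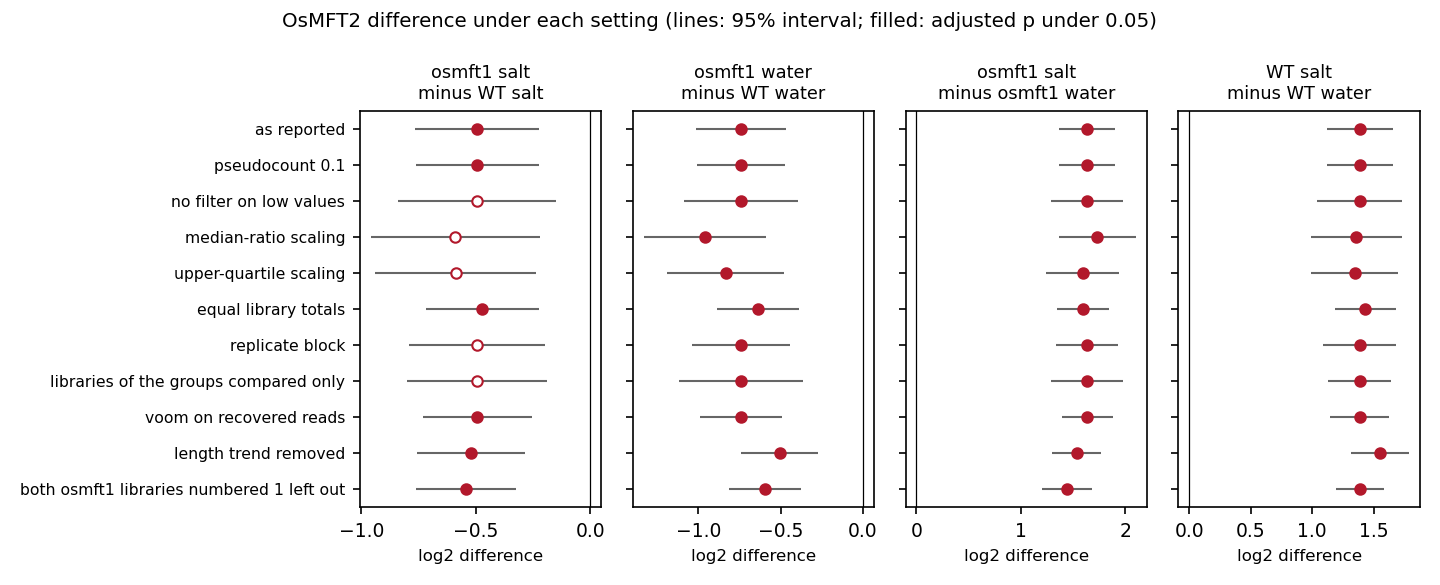
OsMFT2 difference in log2(FPKM + 1) (voom: log2 of recovered reads scaled to library size) on the horizontal axes for the 4 comparisons, with 1 row per processing setting; lines are 95% intervals and filled points have an adjusted p under 0.05. Every point keeps its side of 0, and open points occur only in the comparison of osmft1 salt with WT salt, at -0.49 to -0.59.

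Whether the response of OsMFT2 to salt differed between the genotypes was tested by the interaction, the log2 response in osmft1 minus that in WT. It was 0.25 ± 0.17 (SE; 95% interval -0.14 to 0.63; limma, adjusted p = 0.341) and was not called, where 13.0% of tested IDs were. Without osmft1 water replicate 1 it was 0.10 ± 0.13 (SE; limma, adjusted p = 0.655), and with the length trend removed it was -0.02 ± 0.15 (SE; limma, adjusted p = 0.957). The interval leaves room for a response in osmft1 from 0.91 to 1.55 times that in WT, so these data do not show that the genotypes responded alike.

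OsMFT2 was among the most abundant RNAs of the seed. Within single libraries it ranked 7th to 9th of 35204 IDs in osmft1 in salt, 7th or 8th in WT in salt, 40th to 50th in osmft1 in water, and 24th to 27th in WT in water. It took up 63985 to 74514 reads per library in osmft1 in salt and 92984 to 103024 in WT in salt, and 18652 to 25818 in osmft1 in water and 35087 to 41102 in WT in water. As a share of all counted reads this was on average 0.469% in osmft1 in salt and 0.659% in WT in salt, and 0.152% in osmft1 in water and 0.253% in WT in water. Counting error is small at this depth: the share in osmft1 water replicate 1, the lowest, was 0.123% with an exact 95% binomial interval of 0.121% to 0.125%, which covers counting error only. The spread between libraries therefore limits these comparisons, and depth does not.

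**Figure D3:**
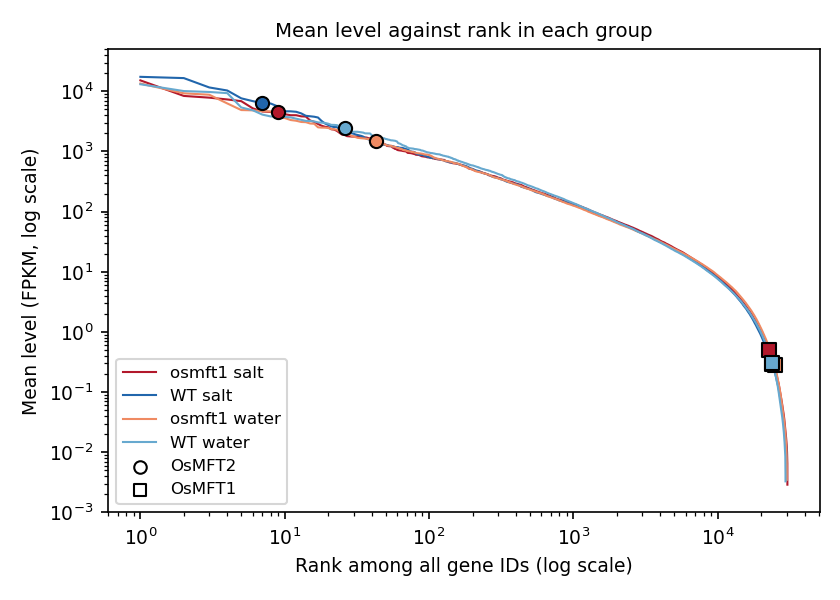
Mean level in FPKM (vertical, log scale) against rank among all gene IDs (horizontal, log scale) for each group, with OsMFT2 as circles and OsMFT1 as squares. The group means of OsMFT2 rank 9th in osmft1 in salt, 7th in WT in salt, 43rd in osmft1 in water and 26th in WT in water, while the OsMFT1 means rank 22547th in osmft1 in salt, 23908th in WT in salt, 24764th in osmft1 in water and 23890th in WT in water.

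The 71 tested IDs with a mean of at least 1000 FPKM over all 12 libraries, OsMFT2 among them, describe how RNAs of like abundance moved. For salt against water their median log2 difference was 0.01 in osmft1 and -0.26 in WT. In osmft1, 29.6% of them were called higher in salt, as OsMFT2 was, and 31.0% lower. In WT, 22.5% were called higher in salt and 45.1% lower. OsMFT2 was exceeded in its rise by 6 of them in osmft1 and by 7 in WT. For osmft1 against WT in water their median was -0.37, with 7.04% called higher in osmft1 and 49.3% lower, so the direction of OsMFT2 in that comparison was shared by many of them. In salt their median was -0.01 for osmft1 against WT, with 5.63% called higher and 7.04% lower. For osmft1 against WT, 11 of them had a more negative difference than OsMFT2 in water, and 11 did in salt. For the interaction their median was 0.36, and 43 of them had a larger value than the 0.25 of OsMFT2. The pooled SD of OsMFT2 between libraries was 0.149 in log2(FPKM + 1), against a median of 0.187 in the class and 0.224 over all tested IDs.

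**Figure D4:**
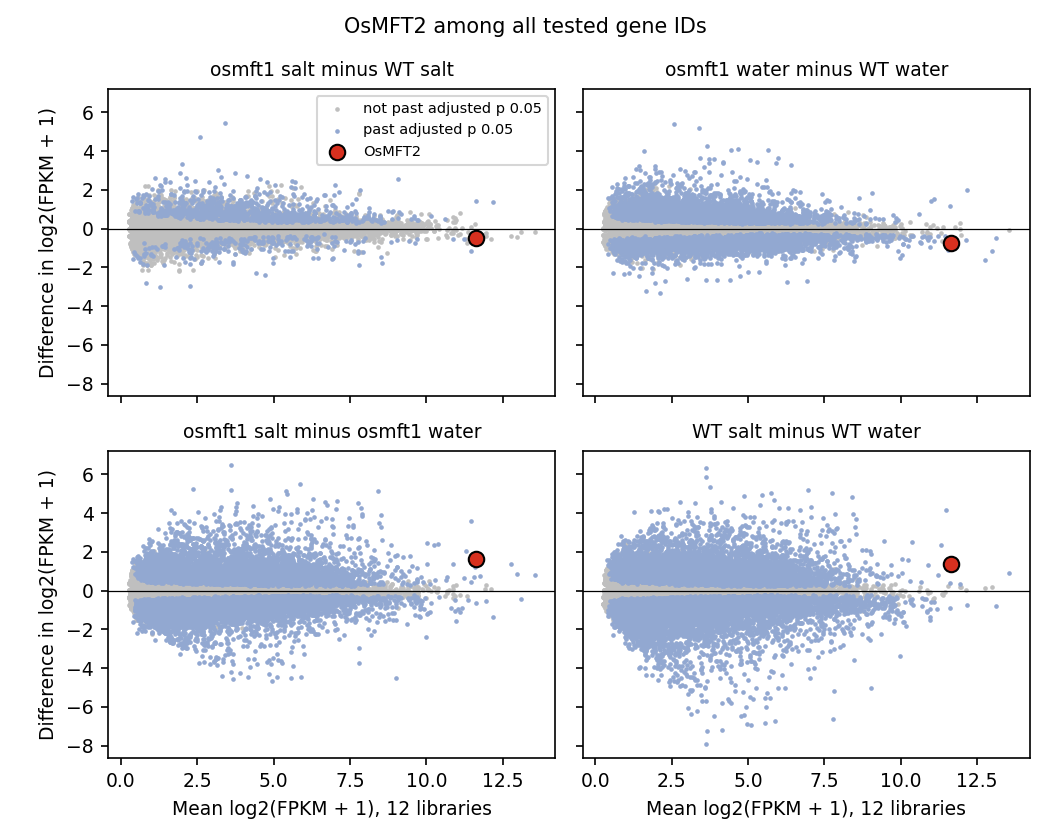
Difference in log2(FPKM + 1) (vertical) against mean log2(FPKM + 1) over the 12 libraries (horizontal) for all 22017 tested IDs in 4 comparisons, with called IDs in blue, other IDs in grey and OsMFT2 in red. OsMFT2 lies at the far right of each panel, at -0.49 (salt) and -0.74 (water) in the genotype panels, and at 1.63 (osmft1) and 1.39 (WT) in the salt panels.

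OsMFT1, the gene knocked out in osmft1, gave almost no reads in any group, WT included. In salt it had 8, 2 and 7 reads in the osmft1 libraries and 3, 6 and 1 in the WT libraries. In water it had 8, 1 and 1 reads in the osmft1 libraries and 1, 7 and 3 in the WT libraries. The groups overlapped throughout, and reads were present in every osmft1 library. These are 48 reads over all 12 libraries, or 0.0811 to 0.685 FPKM per library, and 60.0% to 74.5% of all IDs stood above OsMFT1 within a library.

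**Figure D5:**
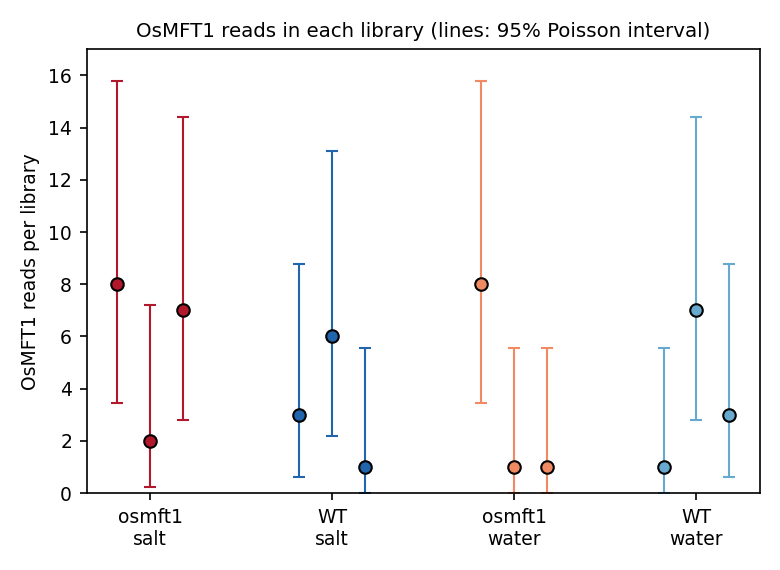
Reads of OsMFT1 per library (vertical axis) for osmft1 salt, WT salt, osmft1 water and WT water; lines are exact 95% Poisson intervals, for counting error only. Counts run from 1 to 8 reads in osmft1 water and from 1 to 7 in WT water, and the groups overlap.

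Counting error alone covered wide differences at this depth. Scaled to the groups' total reads, OsMFT1 reads in salt were 1.71 times as many in osmft1 (17) as in WT (10), with an exact 95% binomial interval of 0.739 to 4.18. In water the ratio of osmft1 (10) to WT (11) was 0.918 (0.35 to 2.38). For salt against water it was 1.78 (0.769 to 4.34) in osmft1 and 0.955 (0.364 to 2.48) in WT. With a pseudocount of 0.1 in place of 1, the log2 difference of OsMFT1 between osmft1 and WT in salt was 0.63 in place of 0.21, and that for salt in osmft1 0.86 in place of 0.24, with exact permutation p of 0.5 and 0.3. No comparison passed an exact permutation test, two-sided, of log2(FPKM + 1), with p from 0.3 to 1 in the 4 pairwise comparisons, where 0.1 is the smallest p that 3 libraries against 3 allow, and p = 0.43 for the interaction, where 0.005 is the smallest. With the filter on low values left off, OsMFT1 entered the limma fit and was not called in any comparison (adjusted p 0.49 to 1). The data therefore show no difference at OsMFT1, but with so few reads and libraries they leave room for a large one. The genotype labels cannot be checked from its level, and the allele is not given, so whether these reads lie in a part kept by the knockout is unknown.

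Per length, OsMFT2 stood far above OsMFT1 in every group. The ratio of their mean FPKM was 9180 in osmft1 in salt (95% interval 5740 to 15800) and 22100 in WT in salt (12000 to 46100). In water it was 5250 in osmft1 (2860 to 11000) and 7990 in WT (4460 to 16000). The intervals come from the OsMFT1 reads and cover counting error only. OsMFT1 had no group order that held up, and with so few reads it could hardly show one. Its group order is therefore not set against that of OsMFT2.

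The pattern of OsMFT2 over the 12 libraries was compared with that of 10971 IDs whose mean reached 10 FPKM in at least 1 group. Of these, 189 (1.72%) had a Pearson r of at least 0.95 with OsMFT2 in log2(FPKM + 1). Another 150 had an r at least as strong in the opposite direction. The libraries fall into separate treatment groups, so such an r describes mostly the group means and carries no test. Closest was Os05g0140800 (Pearson r = 0.991, Spearman rho = 0.979), which averaged 687 ± 53.5 FPKM in osmft1 and 1880 ± 193 FPKM in WT in salt, and 71.5 ± 12.5 FPKM in osmft1 and 196 ± 25.5 FPKM in WT in water (SD, n = 3 each). Its differences had the same signs as those of OsMFT2 and were larger, at 3.26 for salt against water in each genotype and at -1.45 for osmft1 against WT in each treatment. The next was Os01g0256400 (Pearson r = 0.988, Spearman rho = 0.951), with 77.7 ± 4.26 FPKM in osmft1 and 90.9 ± 2.16 FPKM in WT in salt, and 49.4 ± 3.31 FPKM in osmft1 and 59.6 ± 0.622 FPKM in WT in water (SD, n = 3 each). The differences of Os01g0256400 were smaller than those of OsMFT2, at 0.64 in osmft1 and 0.60 in WT for salt against water. For osmft1 against WT its difference was -0.27 in water (limma, adjusted p = 0.0286). In salt it was -0.22 and was not called (limma, adjusted p = 0.135). No gene name is paired with either ID.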

How the data were processed

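RNA-seq of total RNA was deposited as 1 file per library. The build IRGSP-1.0 and the tools HTSeq 0.6.0, HISAT2 2.1.0 and Bowtie2 2.2.3 come from the submitters' processing notes, which state no roles; annotation and strand setting are not given, so overlapping or antisense reads cannot be told apart. The deposited values were taken as FPKM made by the authors; no header names the unit, and RPKM would look alike. From the steps between values, reads and implied lengths (the smallest whole length that gives whole reads) were recovered: 100% of the 255815 values above 0 of tested IDs were whole within 0.003 reads.

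The limma 3.58.1 fit (R 4.3.3) had 1 mean per group, all 12 libraries, a variance trend and 8 residual degrees of freedom, with pseudocount 1, and was tested on simulated data. OsMFT1, under the filter, was tested by exact permutation. The main fit was planned without a replicate block. Same-numbered libraries deviated together little (18 pairs, r -0.191 to 0.241, 4 above 0.1). The higher values included osmft1 and WT in water, at 0.187 for replicate 1 and 0.241 for replicate 3. A pair with different numbers, osmft1 salt replicate 2 and osmft1 water replicate 1, reached 0.326. Replicates differed by more than sampling noise (chi-square per degree of freedom 7.251 to 22.111). A count test chosen at first needs deposited counts and was replaced by voom. The alternatives chosen at first were another pseudocount, no filter, other scalings, a replicate block, smaller fits and leaving out each library; voom, equal totals, removal of length trends and leaving out both osmft1 libraries numbered 1 were added after seeing the data. The members and lists were chosen with earlier results of these data known. Named IDs were the members and the 2 with the highest Pearson r to OsMFT2. Further lists of related loci were not used, since only 1 ID in the files matched the gene table. Python 3.11.15, pandas 2.3.3, numpy 2.4.6, scipy 1.17.1 and matplotlib 3.10.9 were used.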

Additional observations from a re-analysis of the deposited data

How the results depend on the processing

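The salt rise of OsMFT2 in each genotype and its lower level in osmft1 in water kept sign and call in all 22 alternatives each, with log2 differences of 1.44 to 1.73 (salt in osmft1), 1.32 to 1.55 (salt in WT) and -0.96 to -0.51 (water, osmft1 against WT). For osmft1 against WT in salt the call was lost with no filter (-0.49, limma adjusted p = 0.141), median-ratio scaling (-0.59), upper-quartile scaling (-0.59, adjusted p = 0.0687), the replicate block (-0.49, adjusted p = 0.0649) and the salt libraries alone (-0.49); the cause was not tested. Leaving out 1 library gave -0.54 to -0.45 there, with 9 of 12 losing the call (adjusted p 0.0133 to 0.122), -0.82 to -0.60 in water, 1.49 to 1.71 for salt in osmft1 and 1.32 to 1.43 in WT. The interaction of OsMFT2 was 0.10 to 0.32 without 1 library and turned to -0.02 with the length trend removed; it was not called in any of 21 alternatives.

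The replicate block changed no other call, and with OsMFT1 it left the differences at 0.21 in salt and -0.04 in water for osmft1 against WT. OsMFT1 differences turned sign only when 1 library was left out, at -0.25 to 0.11 for osmft1 against WT in water and -0.14 to 0.13 for salt in WT. Without 1 library the others were 0.09 to 0.37 in salt for osmft1 against WT, 0.13 to 0.44 for salt in osmft1 and 0.10 to 0.46 for the interaction; pseudocount 0.1 gave 0.63, 0.86 and 0.88. At 1 to 8 reads per library, depth limits OsMFT1.

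The number of IDs called, the background for OsMFT2, was 1199 for osmft1 against WT in salt. It was 731 with median-ratio and 769 with upper-quartile scaling, 330 with the salt libraries alone, 655 without both osmft1 libraries numbered 1, and 482 to 1236 without 1 library. In water it was 6703, against 3060 without both libraries numbered 1 and 3295 to 6818 without 1. For the interaction it was 2872, against 974 with no filter, 1864 with the length trend removed, 317 without both libraries numbered 1 and 752 to 4202 without 1. Without 1 library, salt gave 8448 to 10128 in osmft1 and 10722 to 12542 in WT.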

Other observations

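Neighbours along the chromosome were taken by ID number, as the 10 nearest tested Os loci on each side (20 per gene, limma, adjusted p under 0.05). Around OsMFT1, 1 neighbour was called between osmft1 and WT in salt, lower in osmft1 (5.0%, against 5.45% of all tested IDs), and 3 had an unadjusted p under 0.05. In water 6 were called higher in osmft1 and 2 lower (of all tested IDs, 20.0% were called higher and 10.4% lower), with a median log2 difference of 0.30 against 0.11 for all tested IDs. There 11 of the 20 had an unadjusted p under 0.05, where 30.4% of all tested IDs passed even the stricter adjusted threshold. No count at an unadjusted p was made over all tested IDs. The unadjusted counts given here therefore set neither group of neighbours apart. Around OsMFT2, none was called between osmft1 and WT in salt, and 1 had an unadjusted p under 0.05. In water 4 neighbours of OsMFT2 were called higher in osmft1 and none lower (8 of 20 had an unadjusted p under 0.05 in either direction), which for the higher calls is the same share as over all tested IDs, 20.0%. For salt against water in WT, 8 neighbours of OsMFT2 were called higher and 7 lower (of all tested IDs, 27.7% were called higher and 28.2% lower), with a median log2 difference of 0.05 against 1.39 for OsMFT2. In osmft1, 4 of them were called higher in salt and 5 lower, with a median of -0.32 against 1.63 for OsMFT2. Of all tested IDs, 20.5% were called higher there and 25.5% lower. Around OsMFT1, 9 were called higher in salt and 1 lower in WT, and 6 higher and 3 lower in osmft1.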
